A study of Mus musculus with 4 samples.

Results

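The circadian clock genes Arntl, Clock, Per1, Per2, Per3, Cry1, Cry2, Nr1d1, Nr1d2 and Dbp were followed in single-cell RNA sequencing (scRNA-Seq) of mouse lung. These 10 genes were found by their symbols among the 32285 genes of the deposited tables, and their unique molecular identifiers (UMIs, tags that let each captured transcript be counted once) were summed per library and per cell class. All 10 averaged 10 CPM (counts scaled to a library total of 1e+06 UMIs) or more across the 4 libraries, the level required of every gene to which they were compared. Together they held from 6808 to 12302 UMIs in a library.

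The study asked how age alters the response of lung cells to mechanical ventilation. Wild-type male C57BL/6 mice were either young (2 to 3 months) or aged (22 months), and each age had 1 nonventilated and 1 ventilated library (3 hours of ventilation), each made from the pooled left lung cells of 3 mice. Nonventilated mice were naive. Ventilated mice also had anesthesia with ketamine and medetomidine, buprenorphine, vascular lines, a high tidal volume and pure oxygen, and these cannot be told apart from ventilation itself. Mice were kept under standard light-dark cycles, and all cells had been frozen before capture. Food was restricted in the aged mice, and whether it was in the young mice was not clear from the sources used here, so feeding cannot be told apart from age. The hour at which lungs were collected was not given in the sources used here, so any difference in time of day between the pools cannot be told apart from age or ventilation.

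The clock is a feedback loop of transcription that runs in nearly every cell with a period of about a day. CLOCK and ARNTL (BMAL1) bind E-box elements and activate the Per, Cry and Nr1d genes, and the PER and CRY proteins then repress that activation, while NR1D1 and NR1D2 (REV-ERB proteins) repress Arntl. DBP, itself an E-box target, activates other genes through D-box elements, and light, feeding, glucocorticoids and temperature can reset the loop.

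The elements through which this loop is known to act were looked for around the start sites of the genes, to show which of them carry matching letters. RefSeq start sites on GRCm38.p6 were available for 9 of the 10 genes (all but Per2), as windows from 250 bases before to 50 after each start. The motifs searched, on both strands and not overlapping in any of the windows shown, were the E-box CACGTG, the E′-box CACGTT and the D-box TTATGTAA. Among 32851 windows of the same length from all genes, 7.15% held the E-box, 4.68% the E′-box and 0.938% the D-box, and 0.0213% held 2 or more D-boxes. Per3 had 2 D-boxes, which began 205 and 158 bases before its start. Cry1 had an E′-box at 79 and an E-box at 60 bases before its start, Per1 an E-box at 166, Cry2 an E′-box at 166 and Nr1d1 an E′-box at 28 bases before its start. None of these letters was found in the windows of Arntl, Clock, Nr1d2 and Dbp or at the second start of Per1, which says only that they are not in these windows. A match of letters is a description and not a bound site. The stretches around these matches are given 5′ to 3′ along the strand of the gene, all of them before the start, with the matches in capitals (AACGTG is the E′-box read on the other strand).
Per3 (chr4:151044776-151044910, - strand): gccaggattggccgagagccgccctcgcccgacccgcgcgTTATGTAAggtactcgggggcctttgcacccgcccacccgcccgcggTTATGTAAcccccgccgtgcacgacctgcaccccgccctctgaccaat
Cry1 (chr10:85185069-85185173, - strand): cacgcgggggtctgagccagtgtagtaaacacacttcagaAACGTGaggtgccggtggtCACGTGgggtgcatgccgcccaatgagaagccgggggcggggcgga
Per1 (chr11:69098743-69098828, + strand): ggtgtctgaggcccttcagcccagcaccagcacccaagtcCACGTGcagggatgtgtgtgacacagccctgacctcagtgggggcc
Cry2 (chr2:92434190-92434275, - strand): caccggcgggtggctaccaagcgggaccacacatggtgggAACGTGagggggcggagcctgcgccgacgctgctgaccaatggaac
Nr1d1 (chr11:98775378-98775445, - strand): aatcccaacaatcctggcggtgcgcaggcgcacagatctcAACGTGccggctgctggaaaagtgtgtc
The Per1 stretch precedes the first of the RefSeq starts listed for this gene and lies inside the longer gene of the GENCODE annotation.

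After the cell filter, 9514 of 15428 barcodes were kept, with 1960 to 2750 cells and 17736722 to 22711057 UMIs per library, and 7237 to 8371 UMIs in the median cell. The study made no replicate libraries, so no test between groups was possible. Intervals in brackets are 95% intervals, exact Poisson for a level and exact conditional binomial for a ratio of levels, and they hold the error of counting only, so mice or pools may differ by more. Across the 9490 genes that averaged 10 CPM or more, log2 ratios (ventilated to nonventilated CPM) had a median of -0.14 at the young and -0.12 at the older age, and the log2 ratios below can be read against it. With TMM scaling these medians became 0.07 and 0.04, which moves each log2 ratio up by the same amount. In all, 23 barcode sequences occurred in more than 1 library, 8 of them among the kept cells.

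Over all cells of a library, Dbp and Per3 were far lower in the ventilated than in the nonventilated library at both ages, and Nr1d1 was also lower. Cry1 was higher at both ages, and Clock was nearly level. In young mice, 3 of the 10 genes (Per3, Nr1d1 and Dbp) were lower by 2-fold or more, beside 9.86% of all genes tested, and none was higher by 2-fold, beside 5.46%. In aged mice, 2 of the 10 (Per3 and Dbp) were lower by 2-fold or more, beside 5.38%, and none was higher, beside 3.46%. For the 10 genes the median log2 ratio came to -0.31 (young) and -0.35 (aged). Nr1d1 in young mice was near the 2-fold limit, and its log2 ratio of -1.06 became -0.85 with TMM scaling and -0.81 with median-of-ratios scaling.

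**Figure D1:**
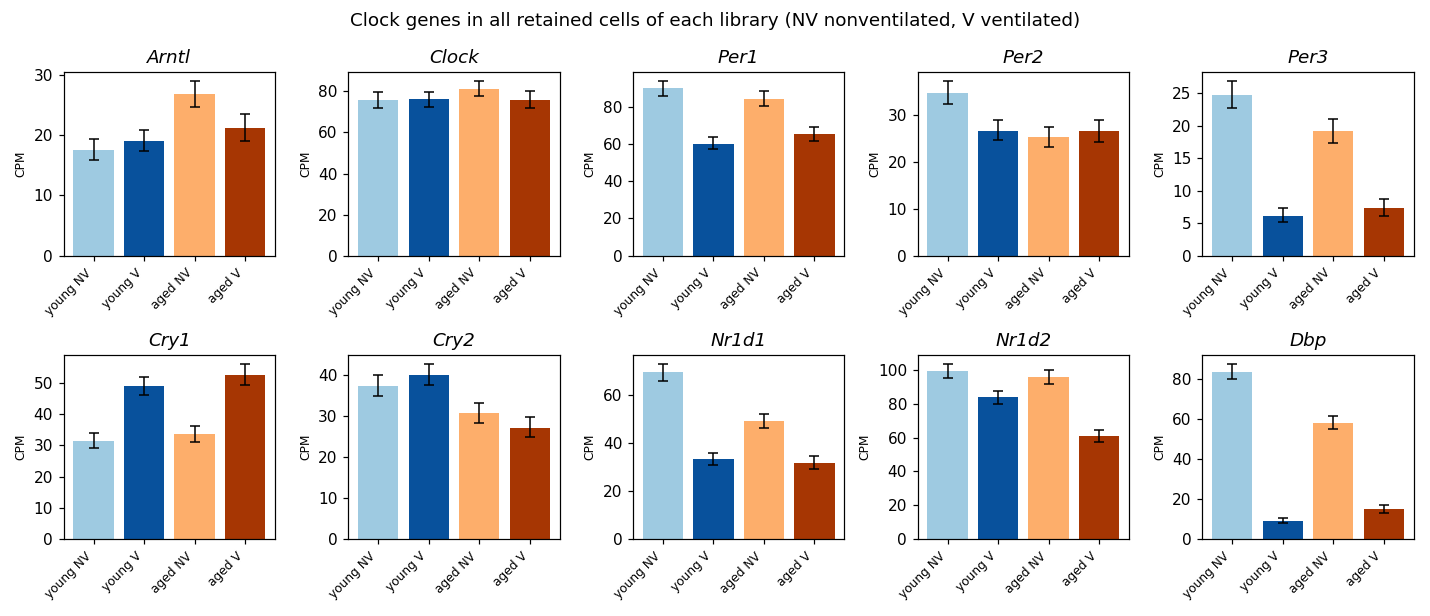
Level of each clock gene, in CPM, in all kept cells of the 4 libraries (NV nonventilated, V ventilated). Bars are the pooled level of 1 library and error bars the exact 95% Poisson interval. Dbp stands at 83.9 and 58.3 CPM in the nonventilated libraries and at 9.25 and 14.9 CPM in the ventilated ones.

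The activators of the loop came close to the same level in the 4 libraries or differed between ages. Clock stood at 75.7 CPM without and 76.1 with ventilation in young mice, and at 81.4 without and 76.0 with it in aged mice. The ventilated over nonventilated ratio of Clock was 1.01 (0.939 to 1.08) in young and 0.934 (0.869 to 1.00) in aged mice. Arntl, the partner of CLOCK, stood at 17.5, 19.1, 26.8 and 21.2 CPM in the same order. The aged nonventilated library had the highest Arntl level, 1.53 times (1.34 to 1.75) that of the young nonventilated library, whereas the ratio of the ages among ventilated libraries was 1.11 (0.966 to 1.28). The 2 ages thus had Arntl ratios on either side of 1 after ventilation, 1.09 (0.946 to 1.25) in young and 0.791 (0.693 to 0.902) in aged mice.

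The Per genes, whose proteins form the repressor complex with CRY, did not share a pattern. Per3 stood at 24.8 CPM without (540 UMIs) and 6.16 with ventilation (140 UMIs) in young mice, and at 19.1 without (417 UMIs) and 7.33 with it (130 UMIs) in aged mice. Both nonventilated libraries were above both ventilated ones. Per3 was 4.02-fold (3.33 to 4.87) lower after ventilation in young and 2.61-fold (2.14 to 3.20) lower in aged mice. Per1, which is also an immediate early gene that responds to glucocorticoids, stood at 90.0, 60.2, 84.4 and 65.4 CPM, and was 1.49-fold (1.39 to 1.60) lower with ventilation in young and 1.29-fold (1.20 to 1.39) lower in aged mice. Per2 stood at 34.9, 26.7, 25.3 and 26.6 CPM. It was the young nonventilated library that stood apart for Per2, with the other 3 libraries within each other's counting intervals.

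The Cry genes encode the other subunit of the repressor, and Cry1 was the only one of the 10 genes with a counting interval above 1 after ventilation at both ages. Cry1 stood at 31.4 CPM without and 49.0 with ventilation in young mice, and at 33.6 without and 52.7 with it in aged mice. Both ventilated libraries were above both nonventilated ones, with a ratio of 1.56 (1.42 to 1.72) in young and 1.57 (1.42 to 1.73) in aged mice. The log2 ratio differed between the ages by 0.01 (-0.19 to 0.21). Cry2 stood at 37.4, 40.1, 30.7 and 27.2 CPM. Over all cells Cry2 was lower in aged than in young mice in both pairs, 1.22-fold (1.10 to 1.35) among nonventilated and 1.47-fold (1.32 to 1.65) among ventilated libraries. Its ratio after ventilation was 1.07 (0.973 to 1.18) in young and 0.885 (0.786 to 0.996) in aged mice. The differences of Cry2 between the ages were smaller with class makeup held equal (below).

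Nr1d1, the repressor of Arntl in the second loop, stood at 69.4 CPM without and 33.2 with ventilation in young mice, and at 49.2 without and 31.7 with it in aged mice. Over all cells the ventilated libraries were alike and the nonventilated ones were not, a likeness that was not kept with class makeup held equal (below). Nr1d1 was 2.09-fold (1.91 to 2.28) lower after ventilation in young and 1.55-fold (1.40 to 1.72) lower in aged mice. Nr1d2, its close paralog, stood at 99.3, 83.8, 96.0 and 60.9 CPM. Here the aged mice had the larger difference, with Nr1d2 1.18-fold (1.11 to 1.26) lower after ventilation in young and 1.58-fold (1.46 to 1.70) lower in aged mice. For the young mice the direction of Nr1d2 depended on the scaling, as its log2 ratio of -0.24 became 0.01 with median-of-ratios scaling. The log2 ratios of Clock (-0.10) and Cry2 (-0.18) in aged mice also turned positive with that scaling, at 0.08 and 0.00, and that of Clock with TMM scaling as well, at 0.06.

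Dbp, the output gene of the loop, stood at 83.9 CPM without (1829 UMIs) and 9.25 with ventilation (210 UMIs) in young mice, and at 58.3 without (1270 UMIs) and 14.9 with it (265 UMIs) in aged mice. The nonventilated libraries were far above the ventilated ones. Dbp was 9.07-fold (7.86 to 10.5) lower after ventilation in young and 3.90-fold (3.42 to 4.47) lower in aged mice. Of the 9490 genes tested, 6 including Dbp had a log2 ratio as low as that of Dbp in young mice, and 38 had one as low in aged mice. For Per3 those numbers were 105 and 168. Over the other ways of filtering, scaling and weighting the cells, the log2 ratio of Dbp ranged from -3.43 to -2.92 in young and from -2.35 to -1.66 in aged mice, with the lowest values in the barcodes that the cell filter removed.

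The 2 ages were then set side by side over all cells. The log2 ratio after ventilation was higher in aged than in young mice by 1.22 (0.94 to 1.50) for Dbp, 0.62 (0.23 to 1.01) for Per3, 0.45 (0.22 to 0.69) for Per2, 0.43 (0.23 to 0.62) for Nr1d1 and 0.21 (0.07 to 0.36) for Per1. It was lower in aged mice by 0.46 (interval of the difference -0.73 to -0.19) for Arntl, by 0.41 (-0.55 to -0.27) for Nr1d2 and by 0.27 (-0.49 to -0.06) for Cry2. The intervals for Clock and Cry1 included 0. Over all cells both ends contributed for Dbp, since the aged library was 1.44-fold (1.34 to 1.55) lower than the young one without ventilation and 1.62 times (1.34 to 1.95) the young one with it. None of the 10 genes was past 2-fold between the ages. Among all genes tested, 0.801% were higher and 0.306% lower by 2-fold or more in aged than in young nonventilated libraries, and 1.1% were higher and 1.64% lower among ventilated libraries. These differences compare single pools, and a difference between the ages was not tested.

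**Figure D2:**
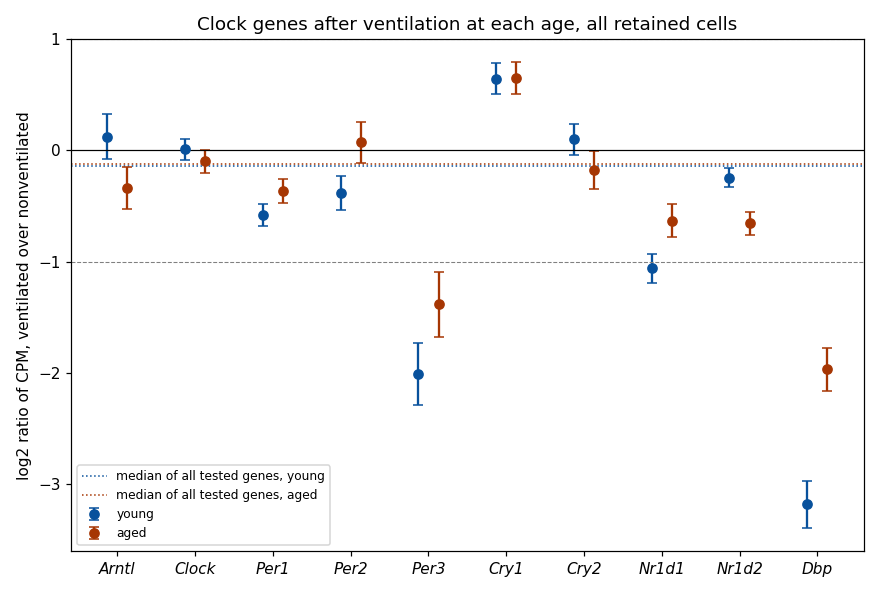
Log2 ratio of ventilated over nonventilated CPM for each clock gene in all kept cells of young and aged mice, with exact 95% conditional binomial intervals. Dotted lines mark the median of the 9490 genes tested (-0.14 and -0.12) and dashed lines 2-fold. Dbp and Per3 lie below 2-fold at both ages, and Cry1 lies above 0 at both.

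To see which cells carried these levels, cells were clustered without use of the 10 genes and clusters were named from fixed marker genes. Of 15 named classes, 12 held at least 20 cells in every library and are used below. A pooled class can hold related cells, since the general capillary-like class also held venous cells, the alveolar fibroblast-like class adventitial fibroblasts, the pericyte-like class smooth muscle, the interstitial macrophage-like class dendritic cells and the nonclassical monocyte-like class classical monocytes. The alveolar type II-like class was also mixed. A finer clustering split its 364 cells into 53 alveolar type II-like cells and 311 shallow cells that stayed unnamed, with the club cell gene Scgb1a1 and the ciliated cell gene Tmem212 among their leading genes. The unnamed cells gave 116892 of 315034 UMIs of the class in the young nonventilated but 199236 of 270955 in the aged ventilated library, and their part in the values of this class was not tested.

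Dbp was highest in stromal cells and close to 0 in most blood-borne cells. In alveolar fibroblast-like cells Dbp stood at 224 CPM without (1097 UMIs) and 14.2 with ventilation (83 UMIs) in young mice, and at 150.4 without (608 UMIs) and 39.7 CPM with it (117 UMIs) in aged mice. That is 15.7-fold (12.6 to 19.9) lower after ventilation in young and 3.79-fold (3.10 to 4.66) lower in aged mice. These cells gave 60.0% of the Dbp UMIs of the young nonventilated library from 22.4% of its UMIs in all. In pericyte-like cells, a class that also held smooth muscle, Dbp stood at 124, 36.0, 124 and 59.6 CPM, and in general capillary-like cells at 48.3, 11.2, 45.9 and 16.9 CPM. What part of the pericyte-like level came from smooth muscle was not tested. The order of the fibroblast- and pericyte-like classes for Dbp was not the same in every library, as pericyte-like cells were first in both ventilated libraries.

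The lower level of Dbp after ventilation was seen across classes and not in fibroblasts alone. Dbp was lower in 11 of 12 classes in young mice and in all 12 in aged mice, as were at least as many for 7.81% and 0.917% of all genes tested. It was lower by 2-fold or more in 10 and 11 classes. Of all genes tested, 0.148% were lower by 2-fold in as many classes in young and 0.0105% in aged mice. The counting interval lay below 1 in 5 classes in young and in 8 in aged mice, as several classes had few Dbp UMIs. The direction came from the 1 UMI added to each sum where a sum was 0, as in neutrophil-like cells of aged mice (0 UMIs without and 1 with ventilation). A limit of at least 20 Dbp UMIs in the pair was chosen after the data were seen, and no share of all genes was taken at it. In classes that reached this limit, Dbp was lower by 2-fold or more in 4 of 4 classes in young and in 8 of 8 in aged mice. Of these 8, the nonclassical monocyte-like class (25 and 7 UMIs) turned to a log2 ratio of 1.52 when 10% background RNA was subtracted. Without ventilation, Dbp was higher in aged than in young mice in 8 of 12 classes and lower in 4. The counting interval lay above 1 in 3 of these classes and below 1 in 1, and no share of all genes was taken for this count. In aerocyte-like cells, the capillary cells of gas exchange, Dbp stood at 13.3, 3.57, 33.1 and 4.36 CPM. In the mixed alveolar type II-like class it stood at 34.9, 12.6, 99.5 and 3.69 CPM on 11, 7, 45 and 1 UMIs. In neutrophil-like cells there were 2, 2, 0 and 1 UMIs of Dbp, and in B or plasma-like cells 1, 0, 5 and 4.

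A finer clustering, with a resolution of 0.5 in place of 0.18, set the stromal cells apart. Alveolar fibroblast-like cells then had Dbp levels of 242, 15.6, 170.8 and 41.5 CPM. Adventitial fibroblast-like cells, which surround vessels and airways, had 200.3 CPM in the young nonventilated (366 UMIs), none in the young ventilated (0 of 604528 UMIs, which allows up to 4.96 CPM), 123 in the aged nonventilated and 16.7 CPM in the aged ventilated library (7 UMIs). Smooth muscle or myofibroblast-like cells had 199, 22.3, 128 and 51.7 CPM. Venous-like cells had 68.3, 7.13, 30.5 and 11.1 CPM. In each of these classes both ventilated libraries were below both nonventilated ones. At this resolution the alveolar fibroblast-like cells of the nonventilated and the ventilated libraries fell mostly into different clusters of that name. Of the 16 classes used at this resolution, Dbp was lower in 14 in young and in all 16 in aged mice. In young mice it was higher in 2 classes, and by 2-fold or more in nonclassical monocyte-like cells (log2 ratio 1.27).

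Counted per cell, the same order held. When alveolar fibroblast-like cells were each reduced to 5000 UMIs, a depth chosen after the data were seen, 60.7% (exact binomial interval 55.3 to 65.9) of 346 young nonventilated, 6.08% (3.97 to 8.85) of 411 young ventilated, 44.8% (38.9 to 50.8) of 279 aged nonventilated and 17.8% (12.8 to 23.8) of 202 aged ventilated cells had a Dbp UMI. Without reduction the shares were 82.3%, 15.3%, 64.3% and 33.7%, with 14182 to 14869 UMIs in the median cell. In neutrophil-like cells, taken as a guide to free RNA, 0 of 46, 1 of 107, 0 of 10 and 0 of 143 cells had one at this depth. The counts of 0 allow up to 6.52%, 30% and 2.10% of cells, in that order. Whether these cells reflect free RNA was not tested. Between 6 and 13 fibroblast-like cells and 49 to 120 neutrophil-like cells per library were too shallow and were left out.

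**Figure D3:**
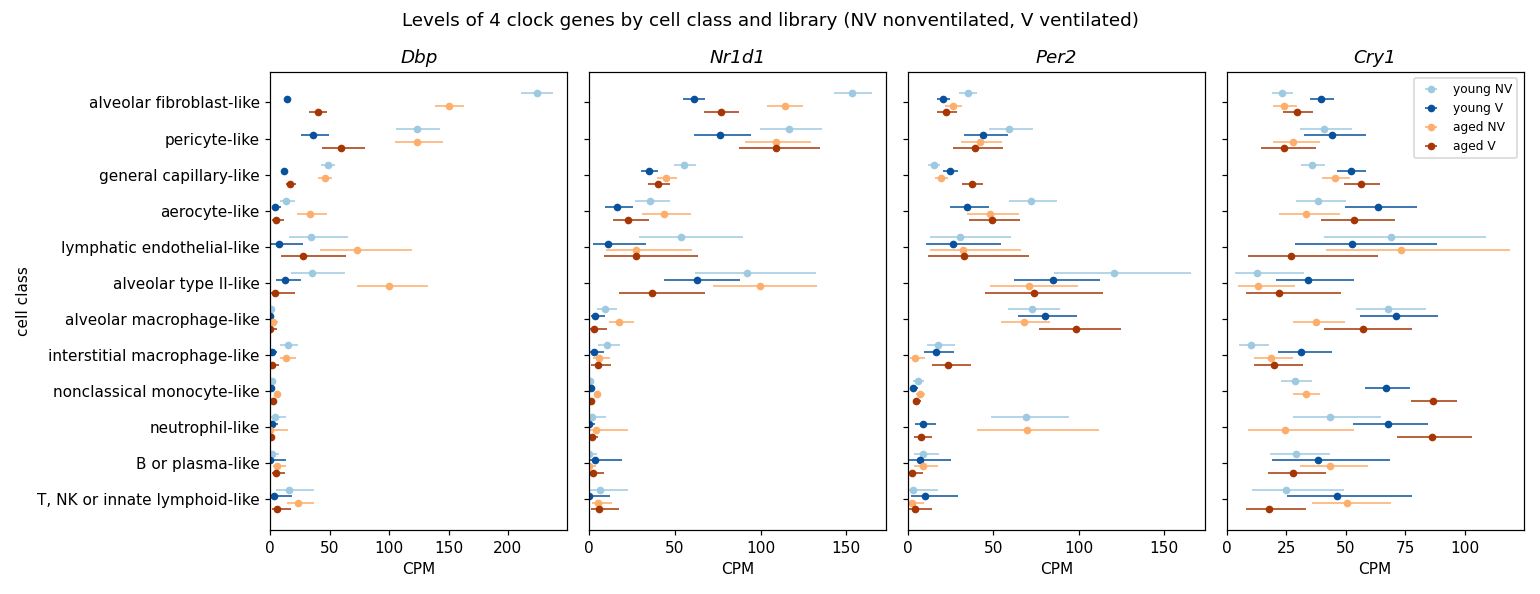
CPM of Dbp, Nr1d1, Per2 and Cry1 in 12 cell classes of each library (NV nonventilated, V ventilated), with exact 95% Poisson intervals. Dbp is highest in stromal classes and lower there in the ventilated libraries, Nr1d1 in pericyte-like cells of aged mice is level at 109 CPM, Per2 in neutrophil-like cells stands at 68.9 and 69.7 CPM without ventilation and at 9.01 and 7.78 CPM with it, and Cry1 in nonclassical monocyte-like cells is higher in both ventilated libraries.

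Per3 was also lower after ventilation in alveolar fibroblast-like cells. In alveolar fibroblast-like cells Per3 stood at 51.1, 6.87, 36.4 and 19.7 CPM (250, 40, 147 and 58 UMIs) in the order used above. Per3 was thus 7.45-fold (5.32 to 10.7) lower after ventilation in young and 1.85-fold (1.35 to 2.55) lower in aged mice, and the log2 ratio was 2.00 (1.35 to 2.64) higher in aged mice, beside 2.05 (1.62 to 2.48) for Dbp in the same cells. In the mixed alveolar type II-like class Per3 stood at 114, 14.4, 66.3 and 18.5 CPM on 36, 8, 30 and 5 UMIs. In general capillary-like cells it stood at 18.5, 7.33, 19.4 and 4.98 CPM, with the lower value in aged mice. Per3 stood at no more than 9.95 CPM in every library in the myeloid and lymphoid classes.

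Nr1d1 in alveolar fibroblast-like cells stood at 154, 61.1, 114 and 76.7 CPM, and was 2.51-fold (2.21 to 2.86) lower after ventilation in young and 1.49-fold (1.27 to 1.75) lower in aged mice. In pericyte-like cells it stood at 117, 76.6, 109 and 109 CPM, where the aged pair was level with a ratio of 1.00 (0.754 to 1.32). In general capillary-like cells it stood at 55.5, 35.0, 45.1 and 40.3 CPM. Nr1d1 had at most 24 UMIs per library in each of the macrophage-, monocyte- and neutrophil-like classes. It was lower by 2-fold or more in 7 of 12 classes in young mice, as were 3.08% of all genes tested, and in 4 of 12 in aged mice, as were 11.1%. With the same limit of 20 UMIs, Nr1d1 was lower by 2-fold or more in 2 of 5 classes in young and in 3 of 7 in aged mice, so that most of the young classes past 2-fold had few UMIs.

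Nr1d2 was found in more classes than Nr1d1 and differed most in monocytes. In nonclassical monocyte-like cells it stood at 30.2, 9.63, 47.8 and 10.2 CPM (84, 30, 204 and 37 UMIs), so that both ventilated libraries were below both nonventilated ones, by 3.13-fold (2.04 to 4.93) in young and 4.70-fold (3.30 to 6.86) in aged mice. In alveolar fibroblast-like cells the Nr1d2 level was nearly flat at 140, 129, 130.1 and 108 CPM, in contrast to Nr1d1 in the same cells. In pericyte-like cells it stood at 162, 180.1, 144 and 134 CPM.

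Per1 and Per2 differed most in neutrophil-like cells. There Per1 stood at 198, 61.3, 189 and 77.8 CPM (109, 68, 46 and 110 UMIs) and was 3.23-fold (2.36 to 4.43) lower after ventilation in young and 2.43-fold (1.68 to 3.45) lower in aged mice. Per2 stood at 68.9, 9.01, 69.7 and 7.78 CPM in the same cells (38, 10, 17 and 11 UMIs), and was 7.65-fold (3.74 to 17.2) and 8.97-fold (3.96 to 21.2) lower. Both genes were thus lower in neutrophil-like cells at both ages by more than their counting intervals. The number of these cells moved with ventilation, from 122 to 225 in the young and from 59 to 263 in the aged libraries, and whether the ventilated libraries held other neutrophils than the nonventilated ones was not tested. Per1 was also lower in nonclassical monocyte-like cells, at 103, 44.9, 102 and 43.7 CPM. At the finer resolution this held in classical monocyte-like cells (99.6, 47.6, 93.9 and 39.4 CPM) as in nonclassical monocyte-like cells (107, 44.3, 106 and 48.3 CPM). In pericyte-like cells Per1 was not lower, at 90.5, 105, 109 and 118 CPM.

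Per2 was higher after ventilation in general capillary-like cells. In general capillary-like cells it stood at 15.1, 24.7, 19.4 and 37.3 CPM (80, 135, 100 and 150 UMIs), and was 1.64 times (1.23 to 2.19) the nonventilated level in young and 1.93 times (1.49 to 2.51) in aged mice. In aerocyte-like cells, a separate kind of capillary cell, it stood at 72.2, 34.8, 48.0 and 49.1 CPM, and was 2.07-fold (1.42 to 3.08) lower after ventilation in young mice while the aged pair was level. The Per2 level over all cells therefore held classes that differed in opposite directions.

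Cry1 was higher after ventilation in 11 of 12 classes in young mice, as were at least as many for 5.10% of all genes tested, and in 8 of 12 in aged mice, as for 23.5%. The ratio was largest in monocytes among the classes with a counting interval above 1 at both ages. In nonclassical monocyte-like cells Cry1 stood at 28.7, 67.1, 33.3 and 86.6 CPM (80, 209, 142 and 315 UMIs), 2.33 times (1.80 to 3.06) the nonventilated level in young and 2.60 times (2.13 to 3.20) in aged mice. At the finer resolution, classical monocyte-like cells had 20.7, 67.9, 26.0 and 86.7 CPM and nonclassical monocyte-like cells 37.4, 65.3, 36.1 and 89.9 CPM. At that resolution classical monocyte-like cells of nonventilated and ventilated libraries again fell mostly into different clusters of the same name, as did general capillary-like cells. In general capillary-like cells Cry1 stood at 36.0, 52.2, 45.5 and 56.5 CPM. In T, NK or innate lymphoid-like cells of aged mice it was lower, at 50.4 CPM without and 17.6 CPM with ventilation (39 and 9 UMIs), against 25.0 and 46.4 CPM (8 and 14 UMIs) in young mice.

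Cry2 and Arntl differed between classes more than with ventilation in most classes. Cry2 was led by pericyte- and alveolar fibroblast-like cells in all 4 libraries, at 66.0 to 91.8 and 63.8 to 85.1 CPM, and its counting interval after ventilation included 1 in every class used at both ages. Arntl was highest in T, NK or innate lymphoid-like cells (81.2 to 108 CPM) and next in B or plasma-like cells (57.9 to 93.9 CPM) in all 4 libraries, although with 26 to 65 UMIs per library the counting intervals of these neighbours overlapped in 3 of the 4 libraries. In alveolar fibroblast-like cells Arntl stood at 2.04, 9.61, 7.91 and 4.75 CPM (10, 56, 32 and 14 UMIs), so that the young nonventilated library was the low one. Clock stood between 80.1 and 118 CPM in the general capillary- and aerocyte-like cells of every library, and neighbouring classes changed places between libraries.

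**Figure D4:**
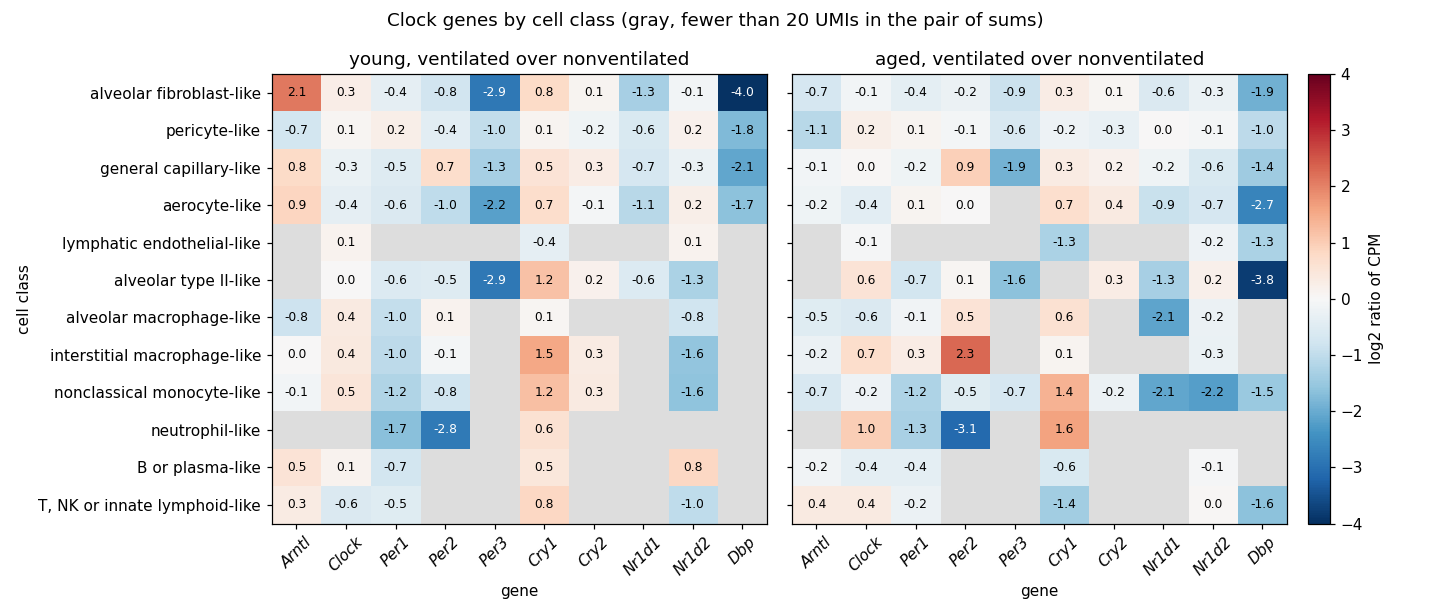
Log2 ratio of ventilated over nonventilated CPM for each clock gene in 12 cell classes of young and aged mice (1 UMI added to each sum), in blue where lower and red where higher with ventilation. Gray marks pairs with fewer than 20 UMIs. Dbp is blue wherever it is shown, whereas Per2 is blue in neutrophil-like and red in general capillary-like cells.

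The ratios over all cells were also taken with the share of each class held equal between libraries. The log2 ratio of Dbp was then -3.16 in young and -1.85 in aged mice, that of Per3 -2.01 and -1.19, and that of Cry1 0.68 and 0.56. That of Cry2 was 0.04 and 0.07, in place of 0.10 and -0.18. Between the ages, the log2 ratio of Cry2 was -0.18 among nonventilated and -0.16 among ventilated libraries, in place of -0.29 and -0.56. The Dbp ratio of aged over young ventilated libraries was 1.00 on the log2 scale, in place of 0.69. Among nonventilated libraries the Dbp ratio was -0.31 on that scale, in place of -0.53. For Nr1d1 the log2 ratio of aged over young was 0.31 among ventilated libraries, in place of -0.07. Among nonventilated libraries that of Nr1d1 was -0.31, in place of -0.50, so that neither pair was alike.

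Other genes of the clock pathway were described in the same way, from a list of 18 of which 12 reached a mean of 10 CPM. In young mice 4 of these 12 were lower by 2-fold or more after ventilation (Rora, Tef, Hlf and Btrc), beside 9.86% of all genes tested. None was higher, beside 5.46%. In aged mice 2 were lower (Rora and Hlf), beside 5.38%, and none higher, beside 3.46%. Their log2 ratios had a median of -0.28 (young) and -0.27 (aged). Tef (log2 ratio -1.04) and Btrc (-1.09) in young mice lay past 2-fold by less than TMM scaling moves them. Hlf and Tef encode the proteins of the DBP family that share the D-box. Hlf stood at 53.4, 16.0, 37.2 and 16.5 CPM, 3.34-fold (2.96 to 3.77) lower after ventilation in young and 2.26-fold (1.97 to 2.59) lower in aged mice, and Tef at 65.4, 31.8, 59.0 and 32.5 CPM. Both ventilated libraries were below both nonventilated ones for both genes. Rora, which activates Arntl at the site that NR1D1 represses, stood at 450.5, 184, 393.5 and 157 CPM. Nfil3, a repressor at D-boxes, stood at 45.7, 73.4, 64.0 and 65.9 CPM, and Bhlhe40, a repressor at E-boxes, at 99.2, 176, 135 and 158 CPM, so that for both genes the young nonventilated library was the low one. The kinase genes Csnk1d and Csnk1e, which act on PER proteins, had log2 ratios between -0.19 and 0.32 at both ages. Btrc, whose product targets PER proteins, stood at 70.6, 33.2, 65.3 and 42.8 CPM. Among the genes too low for the comparison were Npas2, Arntl2, Rorb, Ciart and Fbxl21.

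Since the clock genes can respond to stress hormones, 15 glucocorticoid-response genes and 12 immediate early genes were counted beside them. Of the first list 14 were tested, and 3 were higher by 2-fold or more with ventilation in young mice and 4 in aged mice. The shares of all genes tested were 5.46% and 3.46%. Lower by 2-fold or more were 1 in young (Tsc22d3), beside 9.86%, and none in aged mice, beside 5.38%. The median log2 ratio of this list was 0.39 in young and 0.40 in aged mice. At any size of difference, 10 of the 14 were higher and 4 lower in young mice, and 12 were higher and 2 lower in aged mice. The 4 genes named next had the highest mean CPM over the libraries, a choice that favors genes high with ventilation. The metallothionein genes Mt1 and Mt2 had log2 ratios of 3.66 and 4.61 in young and 2.83 and 3.51 in aged mice, Nfkbia 0.91 and 0.84 and Cebpd 0.43 and 0.46. Fkbp5, which was named after its values were seen together with Tsc22d3, had a log2 ratio of 0.26 in young and 1.10 in aged mice, and Tsc22d3 -1.04 and 0.00, the first of these within the shift of TMM scaling. None of the 12 immediate early genes, which include Fos, Junb, Egr1 and Btg2, was past 2-fold, beside the same shares of all genes. Their log2 ratios had a median of -0.19 (young) and -0.26 (aged). What part these signals have in the levels of the clock genes was not tested.

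Genes that followed the clock genes most closely were sought among the 4152 genes that averaged 50 CPM or more, across 48 points (12 classes in 4 libraries) after centring each class. These points share libraries and depth, and each r is a description. Dbp was nearest to Thra (r = 0.78), Stard9 (0.76) and Mtss1 (0.75), and Nr1d1 to Scaper (0.75), Thra (0.75) and Tbc1d5 (0.74). Among the 10 genes themselves, the highest r was that of Nr1d1 with Dbp (0.74) and next that of Per3 with Dbp (0.71), and the lowest that of Per1 with Cry1 (-0.63). Thra overlaps the end of Nr1d1 on the opposite strand (chromosome 11, 98767932 to 98769006 on GRCm38). Its level was 99.5, 28.9, 79.0 and 26.3 CPM, 3.45-fold (3.16 to 3.77) lower after ventilation in young and 3.01-fold (2.71 to 3.34) lower in aged mice. Per1 was nearest to Ctdsp2 (0.81), Ppp2r5c (0.81) and Rp9 (0.80), Per3 to Gng11 (0.72), Per2 to Reep5 (0.70), Cry1 to Gclm (0.67), Cry2 to Phldb2 (0.60), Nr1d2 to Ppp3ca (0.72), Clock to Ppig (0.68) and Arntl to Rnf19a (0.65).

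Some of these genes share their place in the genome with others, which can bear on how reads are assigned. Dbp (chromosome 7, 45705088 to 45710203) overlaps Sphk2 on the opposite strand from base 45709467. Sphk2 stood between 10.3 and 13.7 CPM in all 4 libraries, with a log2 ratio of -0.03 in young and 0.41 in aged mice. Per3 (chromosome 4, 151003652 to 151044665) lies wholly within Camta1 on the same strand. Camta1 was higher after ventilation, at 99.7, 151, 114 and 128 CPM. These are levels of whole genes, and how reads in the shared stretches were assigned was not tested. Cry2 and Arntl overlap the antisense genes D930015M05Rik and Gm45355. The assay marks the strand of a transcript. The methods name the recommended default settings of Cell Ranger for the counting and do not spell out how strand was used.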

How the data were processed

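Lung cells of 4 groups of mice were profiled by droplet-based 3′ scRNA-Seq, with 1 library of 3 pooled mice per group. The authors made UMI counts per gene and barcode with Cell Ranger 7.0.0 on mm10, as the submitters' processing notes and the methods state, and deposited them as whole-number counts without normalization. Whether depth was equalized between libraries before deposit was not clear from the sources used here. Everything else was computed from the deposited counts.

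The cell filter followed the methods of the study: 200 to 5000 genes, a mitochondrial share of 10% or less, and UMIs up to 21021, which is the 93rd percentile once the first limits were applied. The set of barcodes over which the study took this percentile was not clear, and fewer cells were kept in each library than the study states. These upper limits were the only treatment of doublets. Cells were clustered with Seurat 5.3.0 in R 4.3.3 (2000 variable genes, 37 components, resolution 0.18), which gave 17 clusters. None of the 10 clock genes was among the variable genes. Clusters were named from marker lists, and 2 clusters (928 cells) stayed unnamed, as they were shallow and had no marker of the best name among their 10 leading genes. UMIs were summed per library and class and scaled to CPM. For log2 ratios of CPM, each sum first had 1 UMI added, whereas folds and their intervals were of the sums themselves. Genes were called at 2-fold, if they averaged 10 CPM or more across the 4 libraries. With 1 library per group there was no test, and exact Poisson, conditional binomial and Clopper-Pearson intervals (95%) were used, except that intervals of a difference between log2 ratios came from the Poisson variance of the 4 counts. Where a count was 0, 3 counts gave the limit. UMI totals of 1 class in 1 library ranged from 183478 to 5826259 among the classes used, which sets the precision.

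The other steps used Python 3.11.15, numpy 2.4.6, scipy 1.17.1 and pandas 2.3.3, and edgeR 4.0.16 was used for TMM factors only. The intervals were tested on simulated data. Gene positions came from GENCODE on GRCm38, and start-site windows from RefSeq on GRCm38.p6. The genes named are the 10 clock genes, the lists of other clock genes, glucocorticoid-response genes and immediate early genes (of the last 2 lists the 4 with the highest mean CPM), and the 3 nearest genes of each clock gene. Some genes of the lists are counted but not reported by name here. The clock genes and the lists were chosen with earlier results of these data known. The alternatives varied the cell filter, scaling, weighting and depth of cells, class makeup, gene filter, fold, cluster resolution and background RNA.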

Additional observations from a re-analysis of the deposited data

Results flagged for a closer look

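The barcodes that the cell filter removed, and that enter the text above only as the low end of the range of Dbp log2 ratios, also held lower levels of Dbp, Per3 and Nr1d1 in ventilated libraries. Among the 5047 removed barcodes with at least 200 genes, Dbp stood at 84.0 CPM without and 7.75 with ventilation in young mice, and at 74.2 without and 14.5 with it in aged mice. The log2 ratio of Dbp there was -3.43 (young) and -2.35 (aged). That of Per3 was -2.26 in young and -1.52 in aged mice, and that of Nr1d1 was -1.51 in young mice. These were the clock genes past 2-fold in the removed barcodes, each below the level of the nonventilated control library. They come from the same pools of mice as the kept cells and are no replicate of them, and the difference was not tested.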

How the results depend on the processing

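No paired analysis was possible because each group was 1 library and no result comes from a test, and for the same reason no replicate could be left out. With a limit of 1.5-fold in place of 2-fold, 1 clock gene (Cry1) was higher after ventilation in young and 1 in aged mice, beside 11.9% and 7.81% of all genes tested. At that limit 3 were lower in young mice, beside 22.1%, and 4 in aged mice, beside 16%. Between the ages, 1 was higher in aged mice among nonventilated (Arntl) and 1 among ventilated libraries (Dbp), beside 2.79% and 5.8%. With each cell thinned to 1000 UMIs, 4 of the 10 clock genes were lower by 2-fold or more in aged mice, of which Nr1d1 and Nr1d2 passed narrowly, both at a log2 ratio of -1.01. With the class makeup held equal, 1 clock gene (Dbp, log2 ratio 1.00) was higher by 2-fold in aged than in young ventilated libraries. The share of all genes past 2-fold was not taken with thinned cells or with equal makeup, so the counts there have none to be read against. The difference between the ages in the log2 ratio of Dbp was 0.86 with each cell weighted equally and 1.54 with thinned cells, and the mean CPM of Dbp in alveolar fibroblast-like cells was 118 at a resolution of 0.5. Within classes, pairs with very few UMIs in a sum were left out of this check. Among the rest, the values past 2-fold that changed direction were Per1 in interstitial macrophage-like cells of young mice (log2 ratio 0.52, thinned), Arntl in pericyte-like cells of aged mice (0.52, thinned) and Dbp in nonclassical monocyte-like cells of aged mice (1.52, with 10% background RNA subtracted). Of the pairs left out, Dbp in nonclassical monocyte-like cells of young mice had a log2 ratio of -1.16, and of 1.27 at a resolution of 0.5. Over all cells, Nr1d2 in young and Clock and Cry2 in aged mice changed direction after ventilation under the scalings given above, and ratios close to 0 on the log2 scale changed sign under other alternatives too. The cause was not tested. Allowing the clock genes among the variable genes changed the class of 0 cells, since none of them was among those genes. Depth limits what can be said of Dbp, Per3 and Nr1d1 in myeloid and lymphoid classes, where few UMIs were counted.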
